A study of Mus musculus with 14 samples.

Results

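The genes described here encode the machinery by which a cell shows pieces of its own proteins on major histocompatibility complex (MHC) class I molecules. They were chosen by name, as the rows of the count table whose symbol was H2-K1, H2-D1, H2-T23, H2-Q7, H2-M3, B2m, Tap1, Tap2, Tapbp or Nlrc5. All 10 were among the 24091 genes of the table, and all 10 passed the filter on low counts that left 12248 genes to be tested. RNA was sequenced from T cells sorted from the spleen of 8 mice of the genotype Mir142+/+BCR-ABL, called CP CML, and from 6 of the genotype Mir142−/−BCR-ABL, called BC CML, with 200000 cells and 1 library per mouse. The names stand for the chronic phase and the blast crisis of chronic myeloid leukemia, which these mice model. The mice of both groups, males and females of 6 to 10 weeks on a C57Bl/6j background, carried the SCLtTA/BCR-ABL transgenes. In these mice BCR-ABL had been switched on by withdrawing tetracycline for 3 weeks. The Mir142 deletion was in the germ line, so every cell of the BC CML mice lacked the gene, not T cells alone. All CP CML mice had names with one prefix and all BC CML mice names with another, so a difference between cohorts and one between genotypes cannot be told apart.

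A class I molecule is a heavy chain held by β2-microglobulin with a short peptide in its groove. The peptides are cut by the proteasome, carried into the endoplasmic reticulum by the transporter TAP, and fitted into the groove with the help of tapasin and chaperones. Nearly all nucleated cells carry class I, lymphocytes at high levels, and CD8+ T cells read it through their receptors while NK cells sense its loss. The heavy chains H2-K1 and H2-D1 are the classical molecules of the mouse, and H2-T23, H2-Q7 and H2-M3 are non-classical ones. NLRC5 is the transactivator that raises transcription of the class I genes and of B2m, by joining proteins bound to a set of short boxes before these genes that include a CRE-like element and a CCAAT box.

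Each library held between 15703702 and 19914531 counted reads. The 10 genes took between 0.686% and 0.812% of the reads of a CP CML library and between 0.851% and 0.982% of a BC CML library. Mir142, the deleted gene, had 0 reads in all 6 BC CML libraries, and between 18.4 and 33.8 CPM in CP CML. CPM are read counts scaled to a common library size. A count of 0 allows a level of at most 0.186 CPM in the shallowest BC CML library (3 reads, counting error only). The T cell markers summed to 3501 to 4045 CPM in CP CML and 4413 to 4815 CPM in BC CML, and none of the 9 listed was at 0.

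The stretches before the start sites of 6 of the genes are printed first, since these carry the boxes through which class I transcription is known to be set. The RefSeq promoter table (GRCm38.p6, the same build as the mm10 of the counts) matched 8 of the 10 genes, all but Tap2 and Nlrc5. Each line holds the 200 bases just before a RefSeq start site, 5′ to 3′ on the strand of the gene. Capitals mark matches to the ISRE (GAAANNGAAA, on either strand), to an NF-kappaB motif, and the pairs of a CRE-like core (TGACG) and a reverse CCAAT box (ATTGG) described below them.

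B2m (chr2:122147487-122147686, plus strand): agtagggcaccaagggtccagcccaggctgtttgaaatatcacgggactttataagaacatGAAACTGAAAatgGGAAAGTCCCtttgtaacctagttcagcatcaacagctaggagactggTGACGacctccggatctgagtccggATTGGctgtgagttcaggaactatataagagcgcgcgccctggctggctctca
H2-K1 (chr17:34000334-34000533, minus strand): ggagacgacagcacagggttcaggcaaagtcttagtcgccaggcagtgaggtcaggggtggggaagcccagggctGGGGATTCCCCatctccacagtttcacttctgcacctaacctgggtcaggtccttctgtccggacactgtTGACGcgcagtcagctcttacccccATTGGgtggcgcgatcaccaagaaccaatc
H2-D1 (chr17:35262894-35263093, plus strand): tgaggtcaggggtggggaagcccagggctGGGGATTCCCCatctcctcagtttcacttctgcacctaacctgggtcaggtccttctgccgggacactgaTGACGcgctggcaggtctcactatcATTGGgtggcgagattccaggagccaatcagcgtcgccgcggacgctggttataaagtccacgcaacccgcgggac
H2-Q7 (chr17:35438955-35439154, plus strand): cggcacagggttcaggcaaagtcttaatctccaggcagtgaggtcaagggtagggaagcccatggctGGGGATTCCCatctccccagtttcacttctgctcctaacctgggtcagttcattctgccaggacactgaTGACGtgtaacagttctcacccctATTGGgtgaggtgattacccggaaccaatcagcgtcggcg
H2-M3 (chr17:37270034-37270233, plus strand): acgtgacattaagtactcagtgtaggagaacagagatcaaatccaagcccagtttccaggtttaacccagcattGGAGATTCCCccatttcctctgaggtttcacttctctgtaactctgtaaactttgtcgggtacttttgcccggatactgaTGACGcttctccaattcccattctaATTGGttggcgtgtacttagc
H2-T23 (chr17:36032702-36032901, minus strand): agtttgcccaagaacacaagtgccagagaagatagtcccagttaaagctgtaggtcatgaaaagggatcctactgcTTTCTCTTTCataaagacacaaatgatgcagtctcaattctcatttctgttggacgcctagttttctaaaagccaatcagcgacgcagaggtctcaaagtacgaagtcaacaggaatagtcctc

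The promoters of B2m, H2-K1, H2-D1, H2-Q7 and H2-M3 each held a CRE-like core followed by a reverse CCAAT box at almost the same distance. From the first base of one to the first base of the other were 25 bases in B2m, H2-K1, H2-D1 and H2-M3, and 24 bases in H2-Q7. Such a pair, at 24 or 25 bases and on either strand, stood in 43 of 32851 mouse promoter windows of 300 bases (0.131%). The spacing was noticed in the promoters of these genes before it was counted elsewhere, so it is a description. The pair was not found in the windows of H2-T23, Tap1 and Tapbp, although Tap1 held a CRE-like core 86 bases before its start. The core alone was found in 6 of the 8 genes and in 20.8% of all windows.

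The same 5 genes held an NF-kappaB motif upstream of the pair, a motif found in 8.46% of all windows. From its first base to the CRE-like core were 70 bases in H2-K1 and in H2-D1 and 69 in H2-Q7, against 80 in H2-M3 and 48 in B2m. H2-K1 and H2-D1 shared an unbroken stretch of 47 bases that included the motif and was found before no other gene in the table. The ISRE, the element bound by interferon-regulated factors, matched in B2m (139 bases before the start) and in H2-T23 (124 bases before it), and in 3.44% of all windows. H2-K1, H2-D1, H2-Q7 and H2-M3 had no match to those letters, but shared the 11 bases gtttcacttct downstream of their NF-kappaB motif. Windows of 18 genes in the table held these bases, among them H2-Q4, H2-Q6 and H2-Q10 but also genes outside class I such as Ly86 and Mfsd11. A GAS motif (TTCNNNGAA) matched in H2-M3 alone of the 8, and in 8.30% of all windows, and a CCAAT box in either orientation in all 8 and in 37.4% of all windows. In B2m the ISRE and the NF-kappaB motif were 3 bases apart. No motif match shows that a factor was bound in these cells.

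Compared with CP CML, T cells of BC CML mice had higher levels of 8 of the 10 genes, and of none a lower level. The 8 were H2-K1, H2-D1, H2-T23, H2-Q7, H2-M3, B2m, Tap2 and Nlrc5, each with an adjusted p below 0.05 by edgeR's quasi-likelihood test over all 12248 genes. Tap1 and Tapbp did not pass the test. Of all tested genes 65.2% passed, 32.6% with a higher and 32.7% with a lower level in BC CML, so a change in either direction was common. The median log2 fold change was 0.33 over the 10 genes and -0.01 over all tested genes, and the median absolute log2 fold change over all tested genes was 0.28, so the changes of the class I genes were of ordinary size for these libraries. In 6 of the 10 (H2-K1, H2-D1, H2-T23, H2-M3, B2m and Tap2) the lowest BC CML level exceeded the highest of CP CML, as was the case for 19.3% of all tested genes. A higher level in a bulk sample may be more RNA per cell or more cells of a type with much of that RNA, and these cannot be told apart here.

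**Figure D1:**
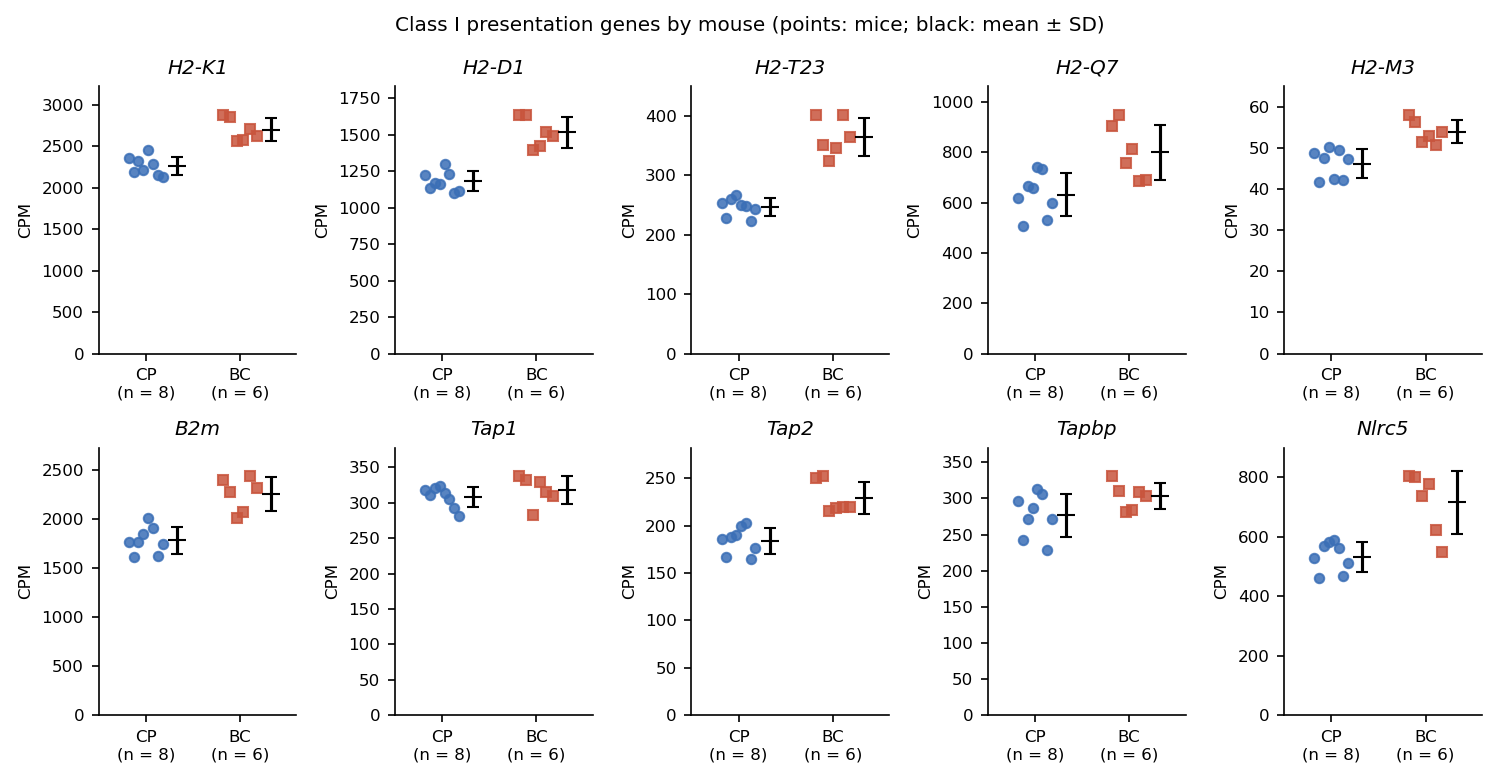
Level of each of the 10 genes in every mouse, in CPM on axes that start at 0, for CP CML (circles, n = 8) and BC CML (squares, n = 6), with the mean ± SD in black. The squares lie above all circles for H2-K1, H2-D1, H2-T23, H2-M3, B2m and Tap2, and among the circles in part for H2-Q7, Tapbp, Tap1 and Nlrc5.

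Per length, B2m was the most abundant of the 10 and H2-M3 the least. Levels per kilobase (RPKM, from the gene lengths deposited with the counts) were in CP CML 2085 ± 159 for B2m, 985 ± 48.8 for H2-K1, 632 ± 36.3 for H2-D1, 156 ± 9.54 for H2-T23 and 148 ± 20.1 for H2-Q7 (SD, n = 8). The genes of loading and regulation were lower, at 100.98 ± 10.8 for Tapbp, 77.1 ± 7.28 for Nlrc5, 74.4 ± 5.58 for Tap2 and 57.2 ± 2.68 for Tap1, and H2-M3 was at 32.7 ± 2.50 RPKM. The order was the same in BC CML. In both groups the ranges of mice overlapped between H2-T23 and H2-Q7, between Tapbp and Nlrc5, and between Nlrc5 and Tap2, so the order within those pairs was not clear of the spread.

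H2-K1 encodes the heavy chain K, the more abundant of the classical heavy chains here. It is annotated on the minus strand (chr17:33996012-34000333, mm10). Its level was 2129.7 to 2458 CPM (median 2251) in CP CML and 2565 to 2880.5 CPM (median 2662) in BC CML. The mean went from 2263 ± 112 to 2700.3 ± 138 CPM (SD, n = 8 and n = 6), a log2 fold change of 0.25 ± 0.04 (SE) with an adjusted p of 6.0e-05 by edgeR. The groups did not overlap, but the lowest BC CML mouse was only 4.38% above the highest CP CML mouse.

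H2-D1, the heavy chain D (plus strand, chr17:35263094-35267497), ranged over 1103 to 1303 CPM (median 1168) in CP CML and 1393 to 1638 CPM (median 1505) in BC CML. Means were 1181 ± 67.8 and 1517 ± 104 CPM, and the log2 fold change was 0.36 ± 0.05 with an adjusted p of 4.0e-06 by edgeR. The groups did not overlap. Its listed span touches those of H2-L and Ddx39b on the same strand.

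H2-T23 encodes Qa-1, which presents signal peptides of other class I chains to the CD94/NKG2 receptors of NK and T cells. Its log2 fold change, 0.56 ± 0.05, was the highest of the 10, with an adjusted p of 5.2e-08 by edgeR. Levels of 222 to 267 CPM (median 249.7) in CP CML stood against 324 to 402 CPM (median 358) in BC CML. The lowest BC CML mouse was 21.3% above the highest CP CML mouse, the widest gap of the 10. The listed span of the gene (minus strand, chr17:36029977-36111426) covers the class I genes H2-T22 and H2-Bl and part of H2-T9, and how reads in the shared parts were assigned is not given in the sources used here.

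H2-Q7 encodes Qa-2, a class I chain that can be anchored in the membrane by a lipid. It is annotated on the plus strand (chr17:35439155-35443773). Its level was 506 to 742 CPM (median 639) in CP CML and 686 to 949.5 CPM (median 785) in BC CML. The means of 632 ± 85.5 and 800.2 ± 109.5 CPM gave a log2 fold change of 0.34 ± 0.10 and an adjusted p of 0.0051 by edgeR. In a fit with the replicate numbers as a block H2-Q7 was at 0.29 and did not pass (adjusted p = 0.0792 by edgeR). It varied most among CP CML mice of the 10 genes, with a coefficient of variation of 13.5%, and BC CML replicates 5 and 6 fell within the CP CML range. Of all windows of read length in its transcripts, 11.8% also occur in transcripts of other genes, most often H2-Q10 (5.47%). The listed span of H2-Q8 overlaps that of H2-Q7 on the same strand. H2-Q6, whose listed span lies within that of H2-Q8, was at 0 reads in all mice. Reads of H2-Q7 and of its relatives may therefore not have been told apart in the counts.

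H2-M3 presents peptides that begin with formylmethionine, as those of bacteria and mitochondria do. It is annotated on the plus strand (chr17:37270234-37274485). It was the least abundant, at 41.7 to 50.3 CPM (median 47.5) in CP CML and 50.9 to 58.2 CPM (median 53.6) in BC CML. The log2 fold change was 0.22 ± 0.05 with an adjusted p of 0.0012 by edgeR, and the groups were separated by 1.19% of the highest CP CML level. With the 5 heavy chains joined to 1 row, so that reads moved between them could not matter, the log2 fold change was 0.32 with an adjusted p of 2.7e-05 by edgeR. With H2-Q4, H2-Q6 and H2-Q8 joined as well it was 0.32 (adjusted p = 1.8e-05 by edgeR). Reads shared with further genes, such as H2-Q10, are not covered by either row.

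B2m encodes β2-microglobulin, the light chain shared by all these heavy chains (plus strand, chr2:122147687-122153082). Its level was 1608 to 2004 CPM (median 1764) in CP CML and 2012 to 2434 CPM (median 2295) in BC CML. The mean went from 1781 ± 136 to 2249.9 ± 174 CPM, a log2 fold change of 0.34 ± 0.06 with an adjusted p of 5.6e-05 by edgeR. The lowest BC CML mouse lay 0.369% above the highest CP CML mouse, so the groups touched rather than stood apart. Patl2 lies over B2m on the opposite strand, and whether the counting used strand is not given in the sources used here.

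Tap1 and Tap2 together encode the peptide transporter and lie near each other on chromosome 17 (Tap1 chr17:34187556-34197225, Tap2 chr17:34204479-34216321, both on the plus strand). Tap2 ranged over 165 to 202 CPM (median 187) in CP CML and 216 to 252 CPM (median 219.6) in BC CML, without overlap. The log2 fold change of Tap2 was 0.32 ± 0.05 with an adjusted p of 5.8e-05 by edgeR. For Tap1 the ranges lay on each other, 282 to 324 CPM (median 313) in CP CML and 283 to 338 CPM (median 323) in BC CML. Tap1 had a log2 fold change of 0.04 ± 0.04 with an adjusted p of 0.396 by edgeR, and the 95% confidence interval ran from -0.05 to 0.14. The interval for Tap2 ran from 0.20 to 0.43.

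The partners therefore differed in their change, and the ratio of their CPM within each mouse tested that difference directly. The log2 ratio of Tap2 to Tap1 was -0.75 ± 0.10 in the 8 CP CML mice and -0.47 ± 0.08 in the 6 BC CML mice (SD), a difference of 0.27. The ratios of the groups did not overlap, and the exact two-sided permutation test over the 3003 splits of the 14 mice gave p = 0.000666, the smallest it can give, or 0.000999 after adjustment over 6 ratios. The ratios were chosen after the fold changes had been seen. Between the listed ends of Tap1 and its divergent neighbour Psmb9, an immunoproteasome subunit on the opposite strand, lay 225 bases. Psmb9 was at 73.8 ± 6.03 CPM in CP CML and 76.8 ± 6.04 CPM in BC CML, with a log2 fold change of 0.06 ± 0.06 and an adjusted p of 0.419 by edgeR. Psmb8, another such subunit, starts after 969 further bases beyond Tap1, and Tap2 after 3024 beyond Psmb8. Psmb8 had a log2 fold change of 0.65 ± 0.04, and the log2 ratio of Psmb8 to Psmb9 went from 1.74 ± 0.11 in CP CML to 2.33 ± 0.06 in BC CML (exact permutation p = 0.000666, adjusted 0.000999). Of these neighbours in a row, the divergent pair in front was not called and the pair behind it was.

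Tapbp encodes tapasin, which bridges TAP and the empty class I molecule (plus strand, chr17:33919478-33929290). It had 228 to 313 CPM (median 279) in CP CML and 282 to 331 CPM (median 306) in BC CML, with 1 BC CML mouse above the CP CML range. The log2 fold change of 0.13 ± 0.06 did not pass the test (adjusted p = 0.0859 by edgeR), and its 95% interval ran from -0.01 to 0.27. Without CP CML replicate 5 it was 0.16 and passed, with an adjusted p of 0.0372 by edgeR.

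Nlrc5 encodes the transactivator (plus strand, chr8:94472763-94527272). Its level was 460.4 to 589 CPM (median 545) in CP CML and 549.7 to 804 CPM (median 758) in BC CML. The means of 534 ± 50.4 and 716 ± 106 CPM gave a log2 fold change of 0.42 ± 0.09 and an adjusted p of 3.8e-04 by edgeR. In BC CML, 5 of 6 mice were above the CP CML range and replicate 6 was within it.

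Other ratios within the mouse compared the sizes of change among the genes. H2-T23 rose more than H2-K1, with a difference in log2 ratio of 0.31, and so did H2-D1, with a difference of 0.11, both without overlap of the groups (exact permutation p = 0.000666 each, adjusted 0.000999). The ratios of B2m to H2-K1 and of Nlrc5 to H2-K1 differed by 0.08 and 0.16 between groups, and neither passed (exact permutation p = 0.0826, adjusted 0.0826, for each). For those the groups overlapped.

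**Figure D2:**
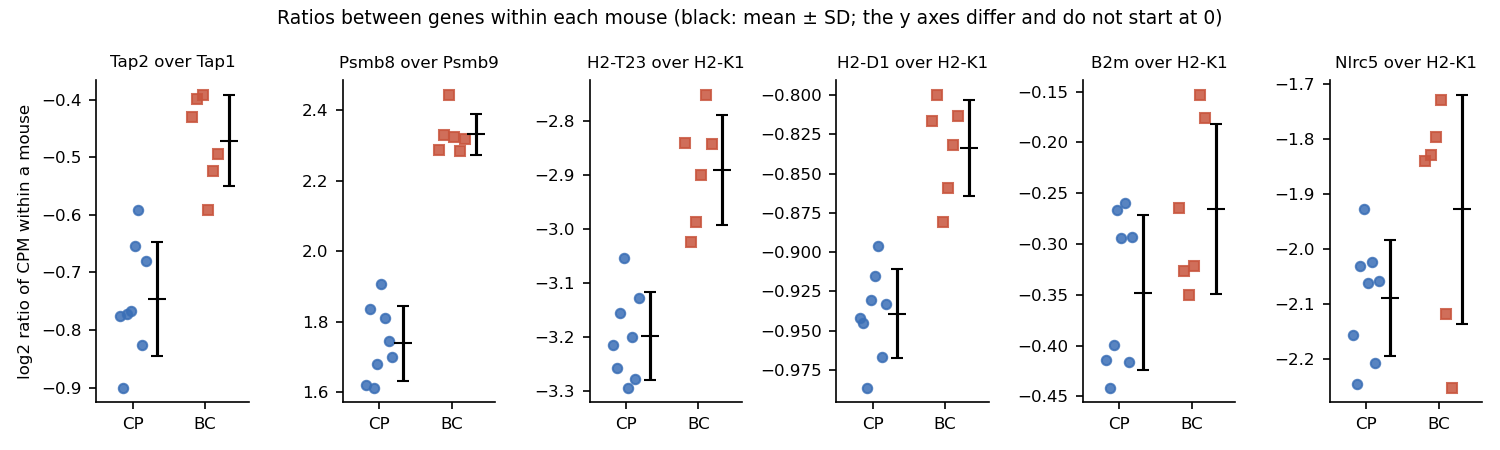
Log2 ratio of the CPM of 2 genes within each mouse, for 6 pairs of genes, in CP CML (circles, n = 8) and BC CML (squares, n = 6), with the mean ± SD in black, on axes that differ and do not start at 0. The groups do not overlap for Tap2 over Tap1, Psmb8 over Psmb9, H2-T23 over H2-K1 and H2-D1 over H2-K1, and overlap for B2m over H2-K1 and Nlrc5 over H2-K1.

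The genes were also compared among mice of 1 group, once the group mean was taken from each. Pearson's r of a gene with the mean of the other 9, over the 14 mice, was between 0.57 for H2-M3 and 0.95 for Tap2. Within CP CML it was lowest for H2-M3 (0.47) and within BC CML for Nlrc5 (0.32) and H2-T23 (0.50). These values share libraries and scaling factors and are a description. BC CML replicate 1 had the highest mean deviation of its group and CP CML replicate 5 of its own. By the likeness of their deviations to the mean of the 10, the first 5 of 9151 other genes were Traf1 (r = 0.93), Chd3 (0.93), Itgb3 (0.91), Cdh24 (0.91) and Zufsp (0.91), over 14 mice.

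The deviations of Nlrc5 were set against those of the other 9 genes. Its deviation from the group mean was related to that of H2-Q7 with r = 0.88 and rho = 0.88 over 14 mice, and with r = 0.94 in CP CML and 0.87 in BC CML alone. A permutation test within the groups gave p = 2e-05 for r and 9e-05 for rho, or 0.00018 and 0.00081 after adjustment over 9 relations. Without the pair of mice farthest from the median of Nlrc5 (BC CML replicate 6 and CP CML replicate 2) r was 0.89. Tap2 followed with r = 0.72 and rho = 0.68 (permutation p = 0.00687 and 0.0105, adjusted 0.0309 and 0.0327), and r = 0.74 without those mice. Tap1 passed by rho alone (rho = 0.71, permutation p = 0.0109, adjusted 0.0327, against r = 0.43, p = 0.174, adjusted 0.223). The other 6 did not pass by either measure, and whether the relations differ from each other was not tested. Among CP CML mice alone r was also 0.93 for Tap2 and 0.86 for Tapbp. B2m had r = 0.90 with Nlrc5 among CP CML mice and -0.34 among BC CML mice, and H2-T23 0.90 and -0.22. Whether these differ between the groups was not tested. The relations were looked at after the values were known. They share libraries and scaling factors, and the permutation tests ask only whether the genes of a pair vary independently among mice of a group. Many genes deviated together in these mice, as Traf1 (r = 0.93) and Cdh24 (r = 0.91) did with the mean of the class I genes. How many of all tested genes follow Nlrc5 as closely as H2-Q7 was not counted. Whether a relation is particular to Nlrc5 and its partner was therefore not tested.

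**Figure D3:**
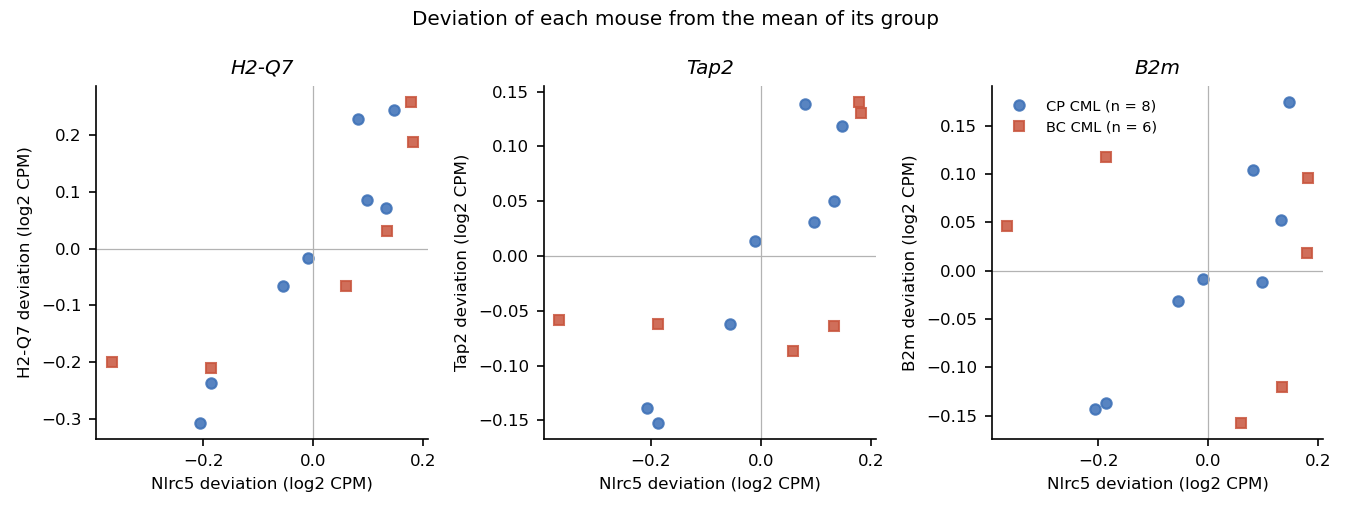
Deviation of each mouse from its group mean in log2 CPM, for Nlrc5 on the horizontal axis and H2-Q7, Tap2 and B2m on the vertical axes, in CP CML (circles, n = 8) and BC CML (squares, n = 6). H2-Q7 rises with Nlrc5 in both groups (r = 0.88 over 14 mice), and B2m does so among the circles (r = 0.90) but not among the squares (r = -0.34).

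Around these genes, the other parts of the pathway were tested in the same fit, and rose and fell are used below of genes that passed it. Of 14 other class I or class I-like genes tested, 6 rose, 1 fell and 7 were not called, with a median log2 fold change of 0.39. The share that rose was 42.9%, beside 32.6% of all tested genes, of which 65.2% were called in either direction. H2-Q4 (498 to 637 CPM, log2 fold change 0.35), H2-Q5 (0.51) and H2-T24 (0.54) rose, and H2-T10 had a log2 fold change of -0.03 and was not called (adjusted p = 0.771 by edgeR). The gene that fell was Cd1d1, which presents lipids to NKT cells (41.5 to 30.7 CPM), named after its value was seen. With the myeloid level as a covariate 4 of the list rose and 1 fell, and with the class II level 3 rose and 2 fell, while 46.5% and 52.5% of all tested genes were called in these fits.

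Of 10 other genes of peptide folding, trimming and loading in the endoplasmic reticulum, 7 rose, 1 fell and 2 were not called (median log2 fold change 0.33). Beside this, 32.6% of all tested genes rose and 32.7% fell. With the myeloid level as a covariate 6 of the list were called, all higher, and with the class II level 7, all higher. In those fits 46.5% and 52.5% of all tested genes were called. The chaperones Hspa5 (log2 fold change 0.49), Calr (0.59) and Pdia3 (0.54), of which the last encodes the partner of tapasin, rose. Lnpep, a peptidase of endosomes, was at 421 CPM in CP CML and 419 CPM in BC CML and was not called. Tapbpl encodes a peptide editor related to tapasin, and of the list it had the largest rise, from 84.5 ± 8.37 to 174 ± 8.89 CPM (log2 fold change 1.04 ± 0.06, adjusted p = 5.8e-11 by edgeR), and it was named after its value was seen. Tapasin itself, beside it, was not called.

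Of 6 immunoproteasome genes, 4 rose and 2, Psmb9 and the assembly factor Pomp, were not called (median log2 fold change 0.35). The 4 are 66.7% of the list, while 65.2% of all tested genes were called and 32.6% rose. The catalytic subunits Psmb8 (246 to 386 CPM, log2 fold change 0.65) and Psmb10 (0.82) and the activator subunits Psme1 (0.31) and Psme2 (0.39) rose, all 4 without overlap of the groups. The same was the case for 19.3% of all tested genes.

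Of 15 tested transcription factors and cofactors of class I promoters, 6 rose, 5 fell and 4 were not called, with a median log2 fold change of 0.08. Among all tested genes 32.6% rose and 32.7% fell. Nfkb1 (log2 fold change 0.24), Irf1 (0.26) and Creb1 (0.31) rose. Rfx5, part of the RFX complex that binds class I promoters at a box not searched here, rose from 42.2 ± 3.00 to 78.5 ± 6.74 CPM (log2 fold change 0.90 ± 0.06). Of the other subunits of that complex, Rfxank fell from 35.5 ± 2.01 to 28.3 ± 1.51 CPM (log2 fold change -0.33) and Rfxap was not called (15.5 and 15.4 CPM, -0.01). Rela, a subunit of NF-kappaB, fell as well (-0.35). Of the subunits of NF-Y, which binds the CCAAT box, Nfya (0.14) and Nfyc (0.08) were not called and Nfyb fell (-0.12). These 7 genes were named after their values were seen. Of 12 genes of interferon receptors and early signalling, 4 rose, 3 fell and 5 were not called, again with a median of 0.08. The share that rose, 33.3%, was near the 32.6% of all tested genes. Ifnar1, a chain of the type I interferon receptor, rose (log2 fold change 0.64), while Ifngr1 (0.09) and Jak1 (-0.01) were not called.

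**Figure D4:**
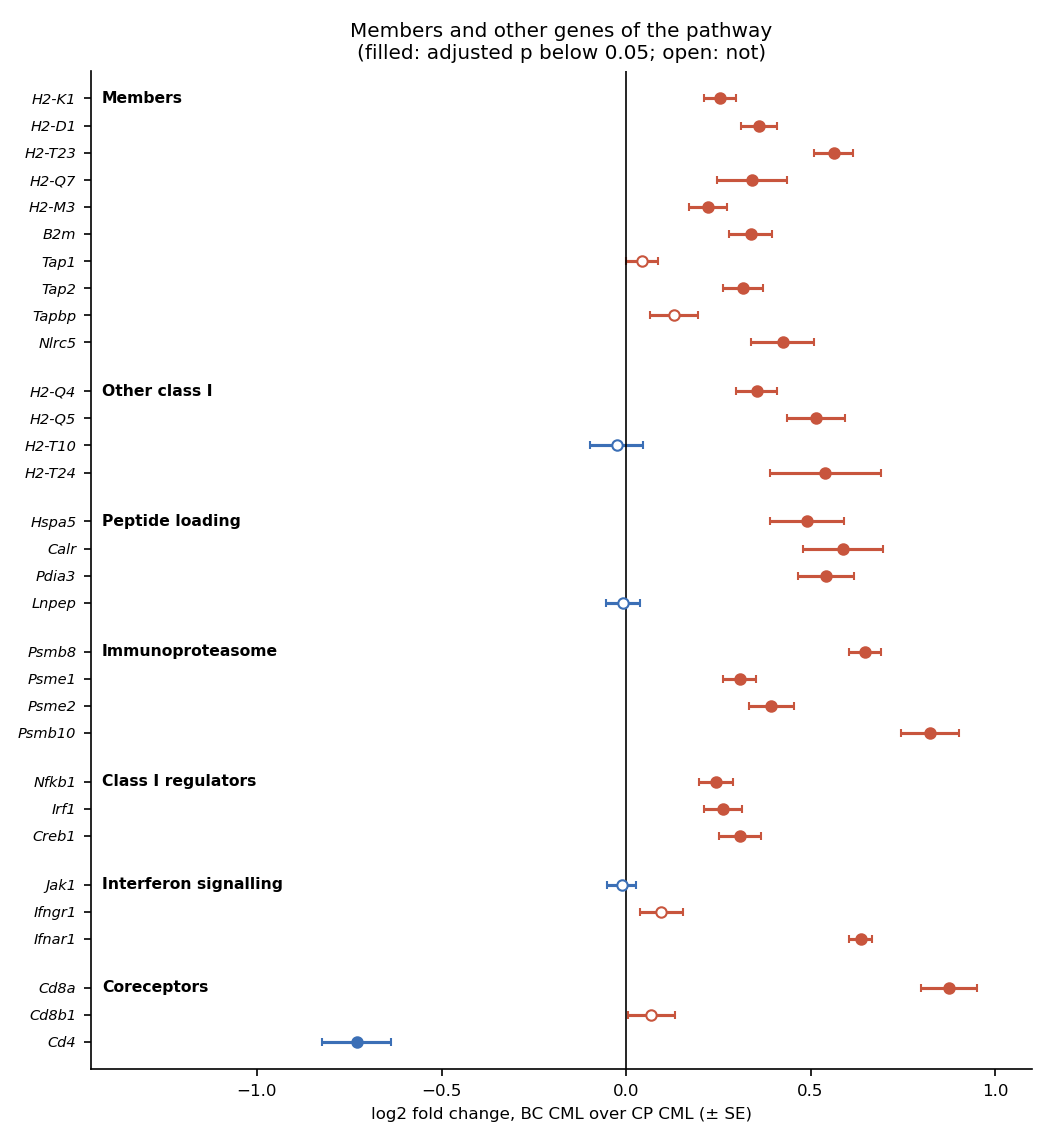
Log2 fold change of BC CML over CP CML, with its SE as bars, for the 10 class I presentation genes and for abundant genes of 6 other lists, filled where the adjusted p was below 0.05 and open where it was not. All 10 class I presentation genes lie to the right of 0, from 0.04 for Tap1 to 0.56 for H2-T23, and Cd4 lies farthest to the left at -0.73.

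The seeds of the deleted microRNA were searched in the 3′UTRs of the 10 genes. A microRNA lowers the level of transcripts that its seed pairs with, mostly in the 3′UTR. Mir142 gives the following mature strands (chr11:87756867-87756887 and chr11:87756903-87756925, plus strand, GRCm38.p6), with the seed, bases 2 to 8, in capitals.

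mmu-miR-142a-5p: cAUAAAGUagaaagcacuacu
mmu-miR-142a-3p: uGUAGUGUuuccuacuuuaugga

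Matches of 7 or 8 bases were counted in the longest annotated 3′UTR of each gene (GENCODE vM21). For miR-142a-3p 0 of the 10 genes had one, against 13.3% of the 11515 tested genes with a 3′UTR. For miR-142a-5p 1 of the 10 had one, against 23.99%. That gene was B2m, with bases 116 to 122 of its 448-base 3′UTR matching seed bases 2 to 7 and followed by an A opposite the first base of the microRNA. The site lies in the last exon (chr2:122152740-122152769, plus strand) in the stretch below, with the match in capitals.

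B2m site: cacatcaccttCTTTATAtcttactttaaa

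The 3′UTRs of the 10 genes were 212 to 1197 bases long. The 7 other genes that rose held no match to either seed in these 3′UTRs.

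The make-up of the sorted cells differed between the groups, and these values stand beside every difference above. Cd8a, which marks CD8+ T cells, rose (689 ± 64.3 to 1263 ± 160.0 CPM, log2 fold change 0.87), Cd8b1 was not called (436 to 457 CPM, 0.07), and Cd4 fell (404 ± 25.2 to 243 ± 45.8 CPM, -0.73). All 7 naive T cell markers fell, from a sum of 4889.8 to 6238 CPM to one of 2683 to 3852 CPM. Among all tested genes 32.7% fell and 32.6% rose. Of the 8 NK cell markers, several of which activated CD8+ T cells also express, 7 rose and 1 fell, and they summed to 473 to 562 CPM in CP CML and 1120.4 to 1523 CPM in BC CML. Their part in the class I differences was not tested.

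Markers of cells other than T cells were counted in the same way, beside the 32.6% of all tested genes that rose. Of 16 myeloid markers 15 rose, with sums of 71.9 to 733 CPM in CP CML and 855 to 2264 CPM in BC CML. Of 7 B cell markers 5 rose (58.9 to 174 CPM against 99.8 to 491 CPM), of 6 dendritic cell markers 3 (31.6 to 45.3 CPM against 56.0 to 146 CPM) and of 4 erythroid markers 1 (15.6 to 63.6 CPM against 41.7 to 72.3 CPM). No listed myeloid, B cell or NK marker was at 0 in every mouse.

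The class II genes, the mark of antigen-presenting cells, were 8 of 10 higher and 1 lower, but no class II gene was without overlap of the groups. They summed to 165 to 476 CPM in CP CML and 264 to 1437 CPM in BC CML. Cd74, the invariant chain, had a log2 fold change of 1.89, H2-Aa 1.83 and H2-Eb1 1.80, and H2-Ob fell (-1.04).

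The class I genes were also fitted with marker levels of such cells. With the mean level of the myeloid markers as a covariate, 8 of the 10 genes were called, all higher, beside 46.5% of all tested genes in that fit, and the log2 fold change of Nlrc5 was 0.64 instead of 0.42. That level, a mean log2 CPM, was 0.07 to 3.93 in CP CML and 3.88 to 5.43 in BC CML. The groups hardly overlapped in it, so the fit can hardly tell myeloid level and group apart. With the class II level as a covariate 8 of the 10 were called as well, beside 52.5% of all genes. With BC CML replicates 3 and 4 alone, the mice whose class II sum lay within the CP CML range, 7 of the 10 were called, beside 49.8% of all genes, and 2 of the class II genes, both lower. The mice were matched on class II only. Their B cell marker sums of 99.8 and 153 CPM were within the CP CML range too, but their myeloid sums of 882 and 1382 CPM and NK marker sums of 1422 and 1523 CPM were above all CP CML mice, as were their dendritic cell marker sums of 56.0 and 93.5 CPM. In those 2 mice the log2 fold change of B2m was 0.20 (adjusted p = 0.0448 by edgeR), that of H2-T23 0.44 and that of Nlrc5 0.51, while H2-M3 was no longer called (0.18, adjusted p = 0.0661).

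**Figure D5:**
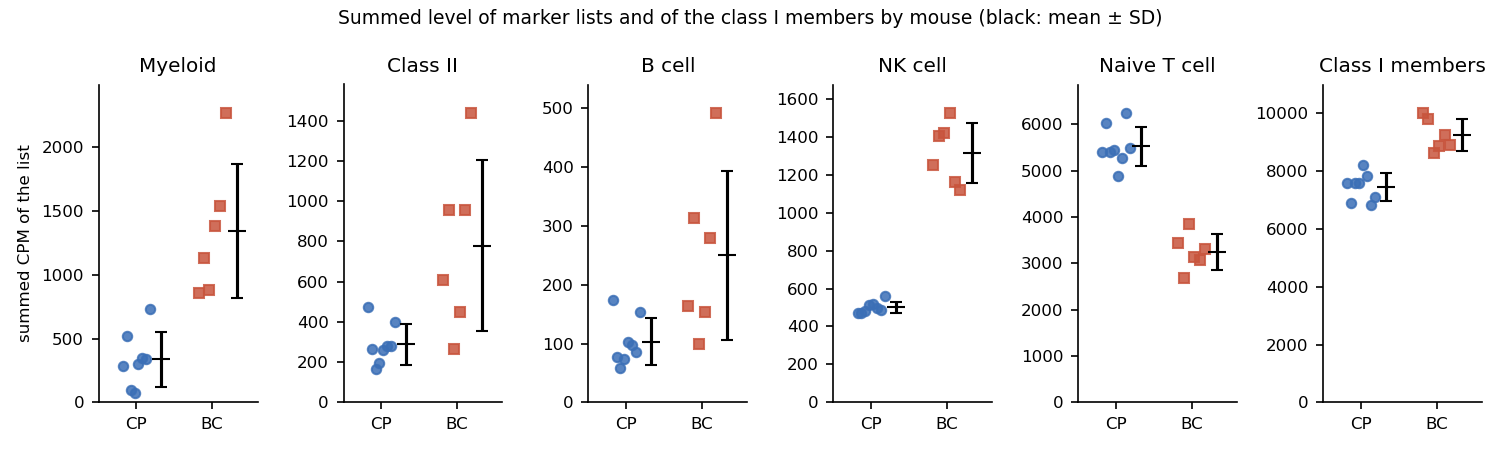
Summed CPM of 5 marker lists and of the 10 class I presentation genes in every mouse, on axes that start at 0, for CP CML (circles, n = 8) and BC CML (squares, n = 6), with the mean ± SD in black. The class I sums lie at 6824 to 8216 CPM in CP CML and 8623 to 10003 CPM in BC CML, while the myeloid, class II and B cell sums of BC CML spread over a wider range than those of CP CML.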

How the data were processed

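The authors trimmed the reads with Trimmomatic, aligned them to mm10 with STAR 2.6.0, counted them per gene with HTSeq 0.11.1, and deposited raw counts with the position and length of each gene, without normalization. The annotation and the strand setting of the counting are not given in the sources used here. Columns were assigned to mice from their names.

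Counts were filtered with filterByExpr on the group, normalized by TMM and tested with edgeR 4.0.16 (glmQLFit with robust estimation, glmQLFTest) in R 4.3.3, without covariates, with Benjamini-Hochberg adjustment over 12248 genes and a threshold of 0.05. The SE of a log2 fold change was taken from the F statistic. CPM uses the TMM-scaled library sizes, log2 CPM a prior count of 2, and RPKM the deposited lengths. The p-values of edgeR set the difference between the groups, which are also different cohorts, against the spread among mice. On simulated counts of 12185 genes for BC CML against CP CML, with 200 changed by 1 on the log2 scale, the test recovered 180 (90%) with 8 other calls. Changes as small as those of the 10 genes, 0.04 to 0.56, were not simulated, nor were counts in which most genes change.

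Mice of a group differed beyond sampling noise, with chi-square values of at least 3.09 per degree of freedom, so each library entered as its own replicate. Replicate numbers come from the titles and belong to different mice. The fit was repeated with DESeq2 1.42.0, with edgeR's likelihood ratio test, with library size or RLE factors as the scaling, with all genes kept, with a filter of over 1 CPM in 6 or more samples, with a block for the replicate number, with a myeloid or class II score as a covariate, with the BC CML mice within the CP CML range of class II reads (chosen after seeing the data), and with each mouse left out.

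The members, the gene lists and the rule for naming genes were chosen with earlier results of these data known. The rule named the 10 genes, Mir142, the 4 most abundant genes of each pathway list and the 5 genes most like the members in their deviations from the group mean. Not every gene that the rule names is reported here. Permutation tests used scipy 1.17.1, with 100000 resamples for the relations to Nlrc5.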

Additional observations from a re-analysis of the deposited data

Results flagged for a closer look

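BC CML replicate 2 had 16145537 counted reads, apart from the other 5 BC CML libraries, of which the next had 18319039. In CP CML replicate 8 the other class I genes summed to 665.714 CPM, below the next lowest CP CML mouse at 731 CPM. Both were the lowest of their group by a gap that is large for the range of the group (Dixon's 95% limit). In all, 36 groups of values were examined, of which chance alone would single out about 1 in 20, or 1.8.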

How the results depend on the processing

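All 8 called genes kept their direction under each alternative and with each mouse left out. Calls were lost for H2-Q7 with the replicate block (0.29, adjusted p = 0.0792 by edgeR) and for H2-M3 with the BC CML mice within the CP CML range of class II reads (0.18, adjusted p = 0.0661). With those mice Tap1, which was not called, was at -0.0048, and 2 class II genes were called in place of 9. With the myeloid score as a covariate 1 class II gene was called. The cause was not tested.

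With single mice left out, between 8 and 9 of the 10 genes were called, and Tapbp ranged from 0.094 to 0.16, passing once, without CP CML replicate 5 (0.16). Over all genes the number called was 7721 to 7966 with mice left out and 5691 to 8719 under the other alternatives, against 7986.

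Mice with the same replicate number did not deviate together, and the numbers are no pairing. The correlation of the deviations of same-numbered mice was -0.02 on average, from -0.27 to 0.36. With the number as a block, in a fit without CP CML replicates 7 and 8, which have no partner, 7 of the 10 genes and 7280 genes in all were called.

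At these depths H2-M3, the least abundant of the 10, rested on 669 to 1052 reads per library, while H2-K1 rested on 33863 to 51942.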
